A study of Mus musculus with 9 samples.

Results

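The 45 genes described here carry out or drive the cell cycle and DNA replication, and they were followed by symbol through a table of 51810 mouse genes measured in cultured valvular interstitial cells, the fibroblast-like cells of heart valves. All 45 symbols were in the table and all 45 were high enough to be tested. They were split by role into 17 S-phase genes, which prepare or carry out the copying of DNA, and 28 mitosis genes, which divide the copied chromosomes between daughter cells. No member passed the test between treatments. Of the 45, 9 (20%) differed between the replicate numbers that the libraries carry, against 11.7% of all genes tested. Without any one of 5 of the libraries this count fell to 0, where 0.897% to 4.19% of all genes passed. It was 0 with no filter on low values too, against 1.84%.

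The cells were taken from the aortic valve and the mitral valve of mice of the C57BL/6J strain and kept in medium with serum, insulin, EGF and basic FGF. Of the 9 RNA-seq libraries, 3 were from cells given oxidised low-density lipoprotein (oxLDL) at 50 µg/mL for 24 h, 3 from cells given native low-density lipoprotein (LDL) at 50 µg/mL for 24 h, and 3 from cells given an equal amount of buffer for 24 h (Control, called untreated in another label). Each treatment has libraries numbered 1, 2 and 3. The labels give the same growth medium for all 3 groups, so the Control cells were grown with serum and both growth factors too. Nothing in the labels says whether equal numbers mark one preparation of cells, or whether the libraries of a group came from separate animals, so p-values measure the spread between these libraries, which may be technical.

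A dividing cell passes from G1, where D-type and E-type cyclins and the E2F factors license entry, through S phase, where the MCM helicase and its loaders open the origins, to mitosis under cyclin B and CDK1. Transcripts of replication genes peak around the start of S phase under E2F factors, and those of mitotic genes peak later under B-MYB and FOXM1, after release from the DREAM repressor complex. In adult valves interstitial cells rarely divide, but they cycle readily once cultured in serum. In bulk RNA, fewer cells in a phase and less of a transcript per cell cannot be told apart.

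Levels are TPM, a scaled share of transcripts corrected for gene length, which keeps no read depth, so no counting error is given. The libraries listed 20985 to 21433 genes above 0. The valve interstitial and fibroblast list, led by Vim and Dcn, summed to 11950 to 14219 TPM with oxLDL, 11775 to 13243 TPM with LDL and 12568 to 13647 TPM in Control. Endothelial markers (8 of 8 above the test's minimum, Cdh5 and Emcn the highest) summed to 140.2 to 336 TPM with oxLDL, 140.3 to 359 TPM with LDL and 132 to 314 TPM in Control. Macrophage and leukocyte markers, mostly Lyz2, summed to 106 to 667 TPM, 230.4 to 649 TPM and 236 to 451 TPM in the same order, and the 5 epithelial markers to at most 9.13, 11.7 and 8.27 TPM. No marker gene was at 0 in all 9 libraries. By these lists the labelled cell type led in every library, beside a smaller amount of endothelial and leukocyte marker RNA.

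The promoters of the members show which sequence letters each class has in common. The letters read are tied to factors that act on such genes, so a contrast between the classes was likely beforehand and is given as a description. RefSeq (GRCm38.p6) gave 36 promoters for 35 of the 45 members, each read from 250 bases before to 50 after the start of the gene, on its own strand. E2F-type letters (TTCCCGC or TTGGCGC or TTCGCGC or TTGCCGC, on either strand) stood in 9 of 14 S-phase promoters (64.3%) and 4 of 22 mitosis promoters (18.2%), against 12.1% of the 21263 promoters of protein-coding genes of that length (9.57% of all 32851 promoters). The cell cycle homology region (CHR, TTTGAA on either strand) stood in 16 of 22 mitosis promoters (72.7%) and 1 of 14 S-phase promoters (7.14%), against 16% of protein-coding promoters (17.9% of all). CCAAT letters stood in 19 of 22 mitosis promoters (86.4%) and 9 of 14 S-phase promoters (64.3%), against 38.2% of protein-coding promoters (37.4% of all). Overlapping matches were each counted, and E2F-type letters can share bases with CCAAT letters. The 14 S-phase promoters belong to 13 genes, since Mcm7 has more than 1, each with E2F-type letters. A match is a run of letters and not a bound site. The 10 members with no entry are Ccnd1, Ccne2, Mcm4, Gins2, Ccna2, Foxm1, Aurkb, Cdc25c, Tpx2 and Kif20a.

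The 150 bases before the start are printed for 4 S-phase genes with E2F-type letters in that window, to show how these sit beside CCAAT letters, with every match in capitals. Mcm6 is at chr1:128359706-128359855, minus strand, Mcm5 at chr8:75109359-75109508, plus strand, Rrm1 at chr7:102441545-102441694, plus strand, and Mcm7 at chr5:138171267-138171416, minus strand.
Mcm6: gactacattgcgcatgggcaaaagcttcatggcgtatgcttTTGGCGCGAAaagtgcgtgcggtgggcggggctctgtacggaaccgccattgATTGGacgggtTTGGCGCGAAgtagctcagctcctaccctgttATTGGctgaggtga
Mcm5: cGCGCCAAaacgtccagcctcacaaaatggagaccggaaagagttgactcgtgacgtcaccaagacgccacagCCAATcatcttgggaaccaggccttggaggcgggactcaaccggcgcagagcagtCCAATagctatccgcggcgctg
Rrm1: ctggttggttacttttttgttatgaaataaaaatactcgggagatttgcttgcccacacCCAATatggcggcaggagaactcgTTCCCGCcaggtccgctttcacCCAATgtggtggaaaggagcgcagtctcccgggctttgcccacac
Mcm7: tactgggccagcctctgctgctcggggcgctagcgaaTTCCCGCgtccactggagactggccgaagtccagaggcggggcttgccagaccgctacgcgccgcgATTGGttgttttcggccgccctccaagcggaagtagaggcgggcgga
The Mcm6 window held 4 E2F-type matches as a pair of runs, each read on both strands, and 2 CCAAT matches, while the other windows held 1 E2F-type match each. The first base of that match was at -149 from the start in Mcm5, at the far edge of the window, at -113 in Mcm7 and at -67 in Rrm1.

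For 4 mitosis genes the same window shows CHR letters, again with every match in capitals. Cdk1 is at chr10:69352913-69353062, Mki67 at chr7:135716380-135716529, Top2a at chr11:99024190-99024339 and Cdc20 at chr4:118437344-118437493, all on the minus strand.
Cdk1: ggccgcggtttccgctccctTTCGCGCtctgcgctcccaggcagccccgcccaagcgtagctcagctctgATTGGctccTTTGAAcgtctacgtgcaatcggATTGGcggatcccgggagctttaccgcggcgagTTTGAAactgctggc
Mki67: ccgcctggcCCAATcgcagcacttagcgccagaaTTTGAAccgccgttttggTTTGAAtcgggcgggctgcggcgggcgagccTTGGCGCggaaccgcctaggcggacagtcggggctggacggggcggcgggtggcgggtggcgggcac
Top2a: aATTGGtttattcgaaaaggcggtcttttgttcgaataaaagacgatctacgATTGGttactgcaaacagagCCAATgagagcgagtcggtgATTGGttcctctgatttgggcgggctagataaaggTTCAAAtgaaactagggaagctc
Cdc20: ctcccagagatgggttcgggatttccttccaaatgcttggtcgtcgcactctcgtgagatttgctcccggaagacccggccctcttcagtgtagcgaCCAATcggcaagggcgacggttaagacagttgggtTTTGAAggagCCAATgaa
Cdk1 and Mki67 held 2 CHR matches and 1 E2F-type match each, and Top2a and Cdc20 held 1 CHR match and none of the E2F-type letters. Top2a carried 4 CCAAT matches. These 8 windows were picked for their matches, so they show what a match looks like and not how common it is.

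The members moved together from library to library. Control 3 was the highest of the 9 libraries for 34 of 45 members, against 19.2% of all genes tested, and oxLDL 2 for another 8, against 8.86%. LDL 1 was the lowest for 38 members, against 20.7%. Relative to the mean of the 9 libraries, the median S-phase gene lay at -0.13, 0.24 and -0.04 in oxLDL libraries 1, 2 and 3, at -0.26, 0.07 and 0.01 in LDL libraries and at -0.18, 0.01 and 0.27 in Control libraries, on the log2(TPM + 1) scale. The median mitosis gene lay at -0.18, 0.22 and -0.08 with oxLDL, at -0.31, 0.06 and -0.07 with LDL and at -0.08, 0.11 and 0.30 in Control. Library 1 was the lowest of each treatment in both classes, and the 3 treatments overlapped in both. Medians over all 13495 genes tested stayed between -0.05 and 0.05. Summed over the 28 mitosis genes, levels were 2356 ± 349 TPM with oxLDL, 2233 ± 254 TPM with LDL and 2583 ± 325 TPM in Control (SD, n = 3 each). Over the 17 S-phase genes they were 1964 ± 287 TPM with oxLDL, 1836 ± 200.1 TPM with LDL and 1963 ± 319 TPM in Control.

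**Figure D1:**
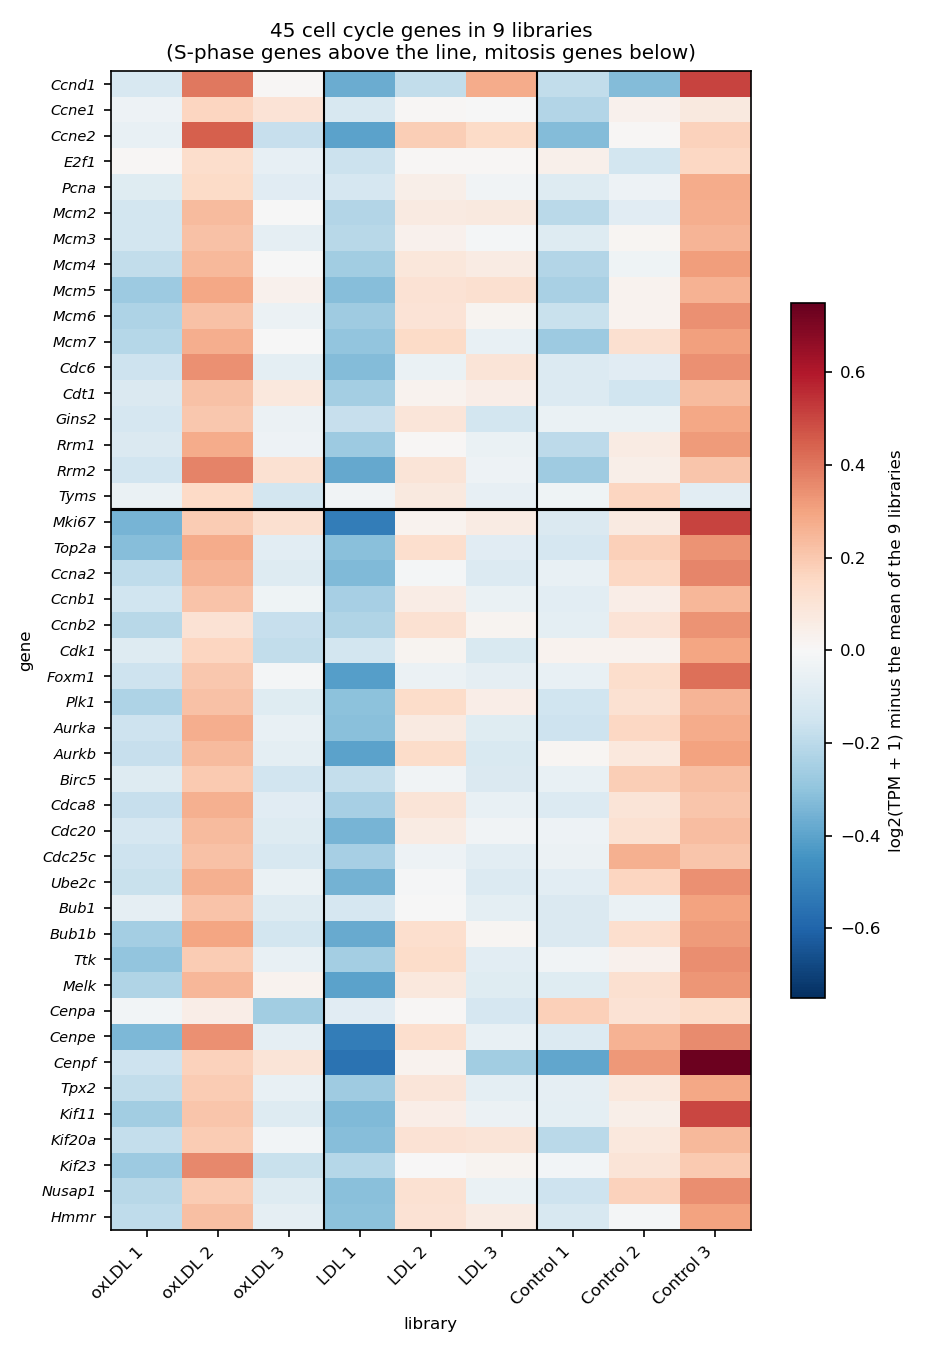
Heat map of log2(TPM + 1) minus the mean of the 9 libraries for the 45 members, with the S-phase genes above the line and the mitosis genes below, and libraries in columns by treatment. The columns of LDL 1 and oxLDL 1 are mostly blue (low) and those of Control 3 and oxLDL 2 mostly red (high) in both classes.

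**Figure D2:**
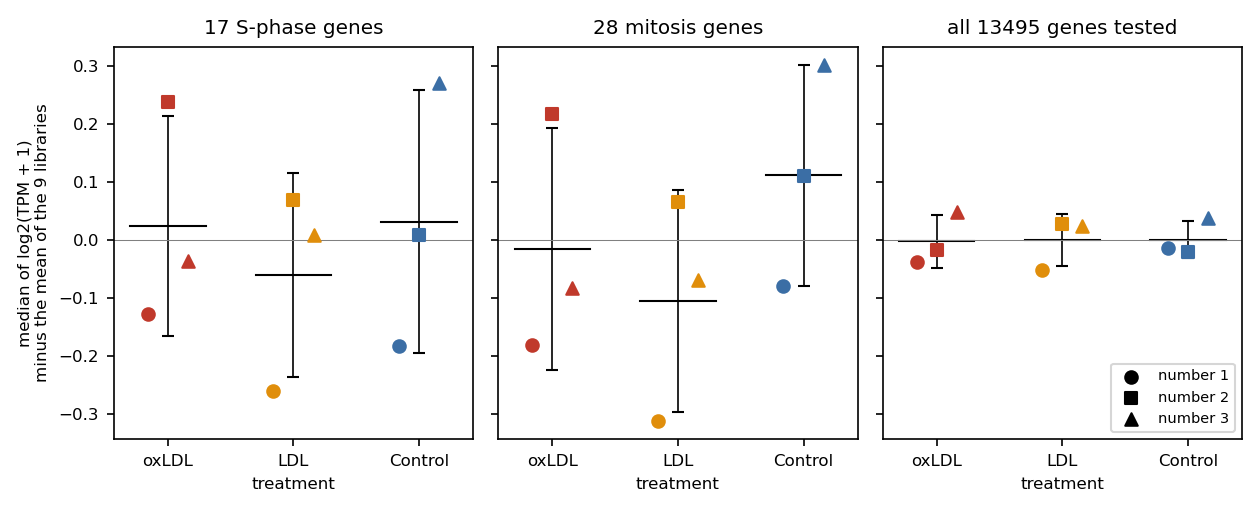
Median over the 17 S-phase genes, the 28 mitosis genes and all 13495 genes tested in each library, as log2(TPM + 1) minus the mean of the 9 libraries, with circles, squares and triangles for libraries 1, 2 and 3 and the mean ± SD of each treatment in black. Mitosis genes reach from -0.31 to 0.30 and S-phase genes from -0.26 to 0.27, while all genes stay between -0.05 and 0.05.

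The 2 classes did not sit at the same height in every treatment. The S-phase median minus the mitosis median was 0.05, 0.02 and 0.05 in oxLDL libraries 1, 2 and 3, 0.05, 0.00 and 0.08 in LDL libraries, and -0.10, -0.10 and -0.03 in Control libraries. All 6 lipoprotein libraries therefore lay above the 3 Control libraries in this difference, which is given as a description without a test, because the genes and classes were chosen with results of these data known.

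Mean levels over the 9 libraries ran from 14.1 TPM for Cdc25c, the phosphatase that frees CDK1, to 331 TPM for Cdk1 itself. The highest library exceeded the lowest by 1.23 times for Tyms, the least variable member, and by 2.56 times for Cenpf, the most variable.

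Among the G1 genes, Ccnd1, which encodes cyclin D1, the sensor of growth signals, read 281, 401 and 307 TPM with oxLDL, 236, 268 and 371 TPM with LDL and 269, 243 and 433 TPM in Control. Its highest library was Control 3 and its lowest LDL 1, and each treatment held both a low and a high library. Ccne1 and Ccne2 encode the E-type cyclins that activate CDK2 at the start of S phase. Ccne1 had 29.2, 33.6 and 32.2 TPM with oxLDL, 27.4, 30.2 and 29.9 TPM with LDL and 25.6, 30.6 and 31.6 TPM in Control, and its treatments overlapped throughout. Ccne2 stood at 27.1, 38.8 and 24.9 TPM with oxLDL, 21.2, 32.2 and 31.3 TPM with LDL and 22.3, 28.4 and 31.9 TPM in Control, with oxLDL 2 the highest and LDL 1 the lowest. E2f1, the transcription factor that switches on S-phase genes, had 31.9, 34.8 and 30.3 TPM with oxLDL, 28.2, 31.9 and 31.9 TPM with LDL and 32.6, 28.7 and 35.3 TPM in Control, the narrowest spread of the class after Tyms.

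Of the replication machinery, Pcna, the sliding clamp of the DNA polymerases, read 247, 291 and 248 TPM with oxLDL, 241, 272 and 258 TPM with LDL and 246, 257 and 319.5 TPM in Control. Control 3 stood highest, and the other libraries of the 3 treatments overlapped. Mcm2, Mcm3, Mcm4, Mcm5, Mcm6 and Mcm7 encode the 6 subunits of the replicative helicase. Mcm2 stood at 67.4, 87.8 and 74.1 TPM with oxLDL, 63.7, 78.1 and 78.1 TPM with LDL and 64.6, 70.1 and 89.9 TPM in Control. Mcm3 had 104, 133 and 109 TPM with oxLDL, 98.7, 117 and 113 TPM with LDL and 107, 115 and 136 TPM in Control. Mcm5 gave 96.2, 143 and 119 TPM with oxLDL, 93.1, 125 and 126 TPM with LDL and 98.4, 119 and 139.6 TPM in Control. In all 3 of these subunits the number 1 library was the lowest of its treatment. Mcm7 read 90.0, 126 and 104 TPM with oxLDL, 84.7, 115 and 100.3 TPM with LDL and 86.3, 114 and 129 TPM in Control, again with library 1 lowest in each treatment. The remaining subunits, Mcm4 and Mcm6, ran from 63.0 TPM to 94.3 TPM and from 99.1 TPM to 152 TPM, both lowest in LDL 1 and highest in Control 3.

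Cdc6, which loads the helicase together with CDT1, had 19.4, 28.0 and 20.7 TPM with oxLDL, 17.2, 21.0 and 23.4 TPM with LDL and 20.3, 20.5 and 27.9 TPM in Control. The treatments overlapped, with oxLDL 2 and Control 3 nearly equal at the top. Cdt1 ran from 26.4 to 37.6 TPM and Gins2, a part of the active helicase, from 74.6 to 103 TPM.

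Nucleotide supply was represented by ribonucleotide reductase and thymidylate synthase. Rrm2, the regulated subunit of the reductase, read 154, 220.5 and 184 TPM with oxLDL, 130.4, 182 and 166 TPM with LDL and 141, 175 and 197 TPM in Control. Rrm1, its large subunit, had 146, 192 and 154 TPM with oxLDL, 130.4, 159 and 152 TPM with LDL and 138, 165 and 197 TPM in Control. Both were lowest in LDL 1, with library 1 the lowest of each treatment. Tyms, thymidylate synthase, stood at 167, 193 and 157 TPM with oxLDL, 170.4, 183 and 166 TPM with LDL and 169.8, 194 and 164 TPM in Control, and unlike the rest it was lowest in library 3 and highest in library 2 of every treatment.

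Of the mitosis genes, Mki67, whose protein Ki-67 coats mitotic chromosomes and marks cycling cells, read 47.1, 68.7 and 65.6 TPM with oxLDL, 41.8, 61.3 and 62.9 TPM with LDL and 55.7, 62.9 and 85.9 TPM in Control. Control 3 stood alone at the top and the number 1 libraries at the bottom of each treatment. Top2a, the topoisomerase that untangles sister chromatids, had 144, 218 and 171 TPM with oxLDL, 145, 197 and 170.2 TPM with LDL and 165, 204 and 228 TPM in Control, in the same order of libraries within LDL as within oxLDL. Cdk1, the kinase that drives entry into mitosis, stood at 308, 369 and 291 TPM with oxLDL, 299.6, 335 and 304 TPM with LDL and 336, 336 and 405 TPM in Control. Every LDL library of Cdk1 was below every Control library, narrowly at the closest pair, while the oxLDL libraries overlapped both.

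Ccnb1, cyclin B1 and partner of CDK1, read 100.2, 129 and 109 TPM with oxLDL, 93.4, 115 and 107 TPM with LDL and 105, 115 and 132 TPM in Control. Ccnb2, the second B-type cyclin, had 91.2, 114 and 93.4 TPM with oxLDL, 89.8, 114 and 107 TPM with LDL and 100.0, 113 and 133 TPM in Control. For both, the lowest library was LDL 1 and the highest Control 3, and all treatments overlapped. Foxm1, a transcription factor of the G2 and mitosis genes, gave 46.6, 59.9 and 51.5 TPM with oxLDL, 38.7, 50.4 and 49.6 TPM with LDL and 49.9, 57.0 and 69.6 TPM in Control, with 2 of the 3 Control libraries inside the range of the oxLDL libraries.

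Among the mitotic kinases, Plk1, polo-like kinase, had 83.9, 115 and 92.8 TPM with oxLDL, 79.7, 109 and 102 TPM with LDL and 88.8, 107 and 118 TPM in Control. Aurka, the spindle pole kinase Aurora A, read 59.9, 80.9 and 64.3 TPM with oxLDL, 53.6, 70.3 and 62.9 TPM with LDL and 59.9, 74.7 and 81.2 TPM in Control. In both, library 1 was the lowest of every treatment. Birc5, survivin, a partner of Aurora B, stood at 140.2, 172 and 136 TPM with oxLDL, 132, 147 and 139 TPM with LDL and 144, 170.1 and 175 TPM in Control, where the LDL libraries lay in a narrow band that the other treatments reached into. Its partners Aurkb, the centromere kinase Aurora B, and Cdca8, borealin, ran from 48.0 to 78.7 TPM and from 68.5 to 98.6 TPM.

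Cdc20, the activator of the anaphase-promoting complex, had 128, 164 and 130.0 TPM with oxLDL, 109, 145 and 137 TPM with LDL and 136, 151 and 164 TPM in Control. Ube2c, the ubiquitin-conjugating enzyme of that complex, ran from 136 TPM in LDL 1 to 222 TPM in Control 3. The treatments of both overlapped.

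At the centromere, Cenpa, the histone H3 variant that marks it, read 119, 124 and 100.2 TPM with oxLDL, 113, 121 and 109.9 TPM with LDL and 136, 129.6 and 132 TPM in Control. All 3 Control libraries of Cenpa lay above all 6 lipoprotein libraries, and they were the closest together of any treatment. Cenpe, the kinesin that links chromosomes to spindle fibres, gave 19.7, 32.2 and 24.0 TPM with oxLDL, 17.3, 27.5 and 24.1 TPM with LDL and 23.3, 30.3 and 32.5 TPM in Control. Cenpf, a large kinetochore protein, had 17.8, 22.7 and 21.5 TPM with oxLDL, 13.3, 20.4 and 16.5 TPM with LDL and 15.0, 25.3 and 34.0 TPM in Control. Control 3 was the highest for both, and Control 1 of Cenpf was lower than every oxLDL library.

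Kif20a, a kinesin of the cleavage furrow, read 83.9, 109 and 94.0 TPM with oxLDL, 76.0, 103 and 102 TPM with LDL and 82.6, 100.5 and 113 TPM in Control, with library 1 the lowest of every treatment. The other 11 mitosis members overlapped in all 3 treatments. They encode cyclin A2 (Ccna2), the phosphatase CDC25C (Cdc25c), the checkpoint kinases BUB1, BUBR1 and TTK (Bub1, Bub1b, Ttk), the kinase MELK (Melk), the spindle assembly factor TPX2 (Tpx2), the kinesins Eg5 and MKLP1 (Kif11, Kif23) and the microtubule binders NuSAP and RHAMM (Nusap1, Hmmr). Their means over the 9 libraries ran from 14.1 TPM for Cdc25c to 91.8 TPM for Ccna2.

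**Figure D3:**
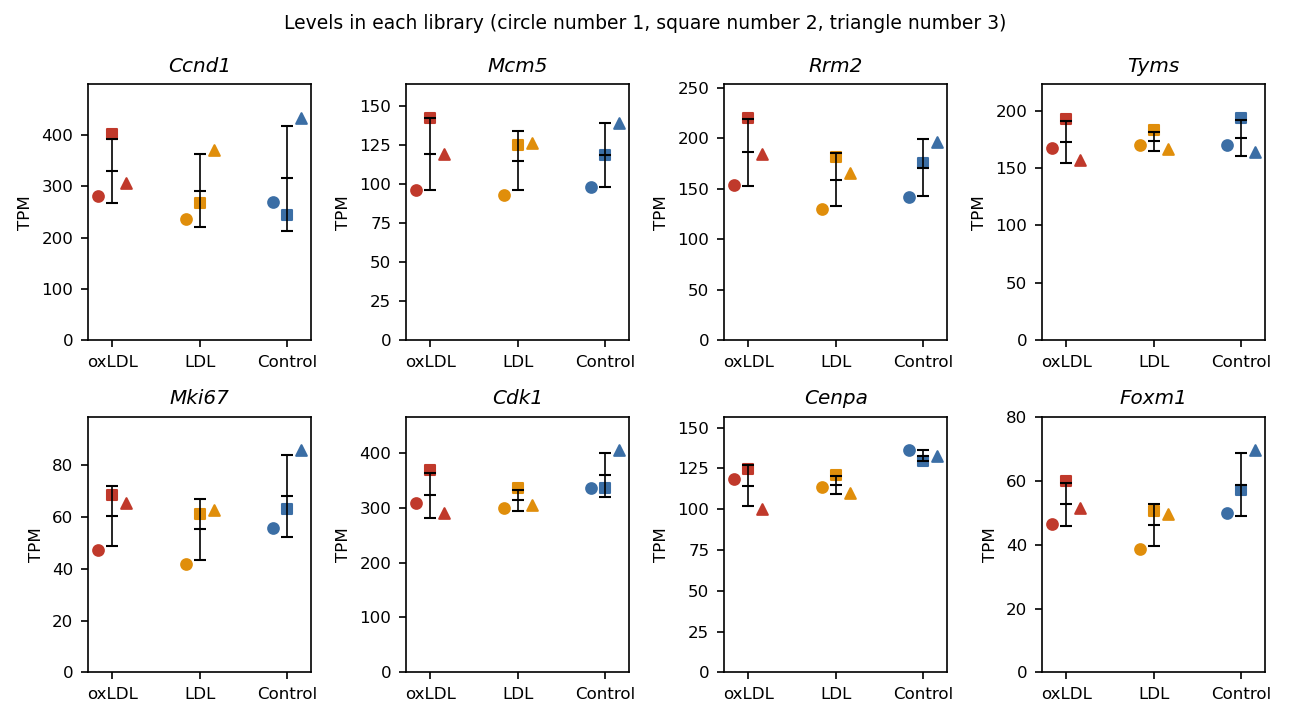
TPM (y axis, from 0) of 4 S-phase genes (Ccnd1, Mcm5, Rrm2, Tyms) and 4 mitosis genes (Mki67, Cdk1, Cenpa, Foxm1) in each library, with circles, squares and triangles for libraries 1, 2 and 3 and bars for the mean ± SD of 3 libraries. The number 1 library is the lowest of each treatment for Mcm5, Rrm2, Mki67 and Foxm1, and the 3 Control libraries of Cenpa, at 130 to 136 TPM, lie above the other 6.

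With native LDL against buffer, no member passed the test: 0 of 45 had a limma adjusted p under 0.05, where 45 of all 13495 genes tested did (0.333%). The libraries did not overlap, with LDL lower, for 2 members, Cdk1 and Cenpa, against 5.06% of all genes. The direction was nevertheless shared, since the mean was lower with LDL for 16 of 17 S-phase genes and 28 of 28 mitosis genes, against 50.5% of all genes. The exception was Ccne2, at a log2 difference of 0.02. The median log2 difference (LDL minus Control) was -0.09 for S-phase genes and -0.21 for mitosis genes, and -0.00 for all genes tested. Within same-numbered libraries the mitosis median was -0.19, -0.04 and -0.37 for numbers 1, 2 and 3, and the S-phase median was -0.08, 0.08 and -0.25. All 3 numbered differences were below 0 for 18 mitosis genes and 1 S-phase gene, Rrm1, together 19 of 45, against 17.5% of all genes.

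Single members with LDL ranged from Cenpf at -0.49 (95% CI -1.08 to 0.11, limma adjusted p = 0.875) to Ccne2. Foxm1 was at -0.34 (SE 0.15, limma adjusted p = 0.753), and Cenpe at -0.32, Ccna2 at -0.31 and Ube2c at -0.30 came next. Cenpa, at -0.21 (SE 0.08), was the 1 member with an unadjusted limma p under 0.05 (adjusted p = 0.664), where 6.65% of all genes had one. With the replicate number as a block, 14 mitosis genes and 0 S-phase genes had an unadjusted limma p under 0.05, all with LDL lower, against 6.58% of all genes in that direction, but the smallest adjusted p was 0.167 (Foxm1) and 0 of 45 passed, against 0.852% of all genes. The 95% intervals of S-phase genes reached down to -0.64 for Ccnd1 and up to 0.50 for Ccne2. Changes of that size remain inside the error of these genes. Other intervals were narrower, such as -0.23 to 0.19 for Tyms. The shift leaned on Control 3 and LDL 1. The median over the 45 was -0.15 with all libraries and -0.07 without Control 3, when 5 S-phase and 25 mitosis genes were lower. It was -0.08 without LDL 1, when 9 and 25 were lower. The shift was larger without Control 1, at -0.23, and without LDL 2, at -0.22. Myofibroblast and smooth muscle markers, mostly Acta2 and Tagln, also differed in sum, at 1067 to 1356 TPM with LDL and 1516 to 1811 TPM in Control. Of the 4 markers tested, 2 (Acta2 and Tagln) did not overlap, with LDL lower, against 5.06% of all genes. Myl9 and Cnn1 overlapped. The part of these markers in the result was not tested.

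With oxLDL against buffer, 0 of 45 members passed, where 2 of all 13495 genes did (0.0148%). Cenpa was the 1 member whose libraries did not overlap, lower with oxLDL, against 3.83% of all genes. On the log2(TPM + 1) scale, 28 of 28 mitosis genes had a lower mean with oxLDL, against 50.9% of all genes. S-phase genes had no shared direction, with 8 lower and 9 higher. Mcm4 was among the higher, at a log2 difference of only 0.0016. The median log2 difference (oxLDL minus Control) was -0.14 for mitosis genes and 0.00 for S-phase genes, and -0.00 for all genes. Neither class kept the same direction in every numbered pair. The mitosis median was -0.11, 0.11 and -0.39 and the S-phase median 0.01, 0.26 and -0.31 for numbers 1, 2 and 3. Only Cdc25c and Cenpa of the mitosis genes and Tyms of the S-phase genes were lower in all 3 pairs, 3 of 45 against 14.0% of all genes, and Ccne1 was higher in all 3, against 13.1%.

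Cenpa, at -0.22 (95% CI -0.41 to -0.03, limma adjusted p = 1), was the 1 member with an unadjusted limma p under 0.05, against 3.86% of all genes. Ccnb2 followed at -0.21. Ccne2, at 0.12, and Rrm2, also at 0.12, had the highest S-phase differences. The LDL and oxLDL comparisons use the same Control libraries, and the low values of Cenpa in both are set against one set of Control values. With the block, 0 of 45 passed (0.126% of all genes), and the smallest adjusted p was 0.405 (Cenpa). The median over the 45 was -0.09 with all libraries, 0.01 without oxLDL 1 or without Control 3 (19 mitosis genes lower each), -0.05 without oxLDL 3, -0.19 without Control 1 and -0.20 without oxLDL 2, when 16 S-phase genes were lower.

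With oxLDL against native LDL, 0 of 45 members passed, where 14 of all 13495 genes did (0.104%), and the libraries overlapped for all 45, where 8.31% of all genes did not overlap. The mean was higher with oxLDL for 16 of 17 S-phase genes and 26 of 28 mitosis genes, 42 in all, against 50.3% of all genes. Tyms, Ccnb2 and Cenpa were the other 3. The median log2 difference (oxLDL minus LDL) was 0.08 in both classes and 0.00 over all genes. In numbered pairs it was 0.08, 0.17 and -0.06 for S-phase genes and 0.10, 0.16 and -0.03 for mitosis genes, and 16 members (6 S-phase and 10 mitosis) were higher in all 3 pairs, against 16.6% of all genes. Cenpf, at 0.30 (95% CI -0.29 to 0.90), and Rrm2, at 0.22 (95% CI -0.17 to 0.61), led the classes, followed by Ccnd1 and Foxm1, both at 0.19. No member had an unadjusted limma p under 0.05, against 3.91% of all genes. With the block, the smallest limma adjusted p was 0.438 (Rrm2), and 0 of 45 passed (0.259% of all genes). The median over the 45 was 0.08 with all libraries, -0.04 without oxLDL 2, when 11 S-phase and 20 mitosis genes were lower, -0.01 without LDL 1, 0.16 without oxLDL 1 and 0.15 without LDL 2. Marker sums were also read in this comparison. Myofibroblast and smooth muscle markers, mostly Acta2 and Tagln, summed to 1484 to 1552 TPM with oxLDL and 1067 to 1356 TPM with LDL, without overlap. On the log2(TPM + 1) scale the mean was lower with oxLDL for 8 of 8 macrophage and leukocyte markers, at TPM sums that overlapped. Of these 8 markers, 0 had an unadjusted limma p under 0.05 and 0 were lower in all 3 numbered pairs. Their part in the result was not tested.

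**Figure D4:**
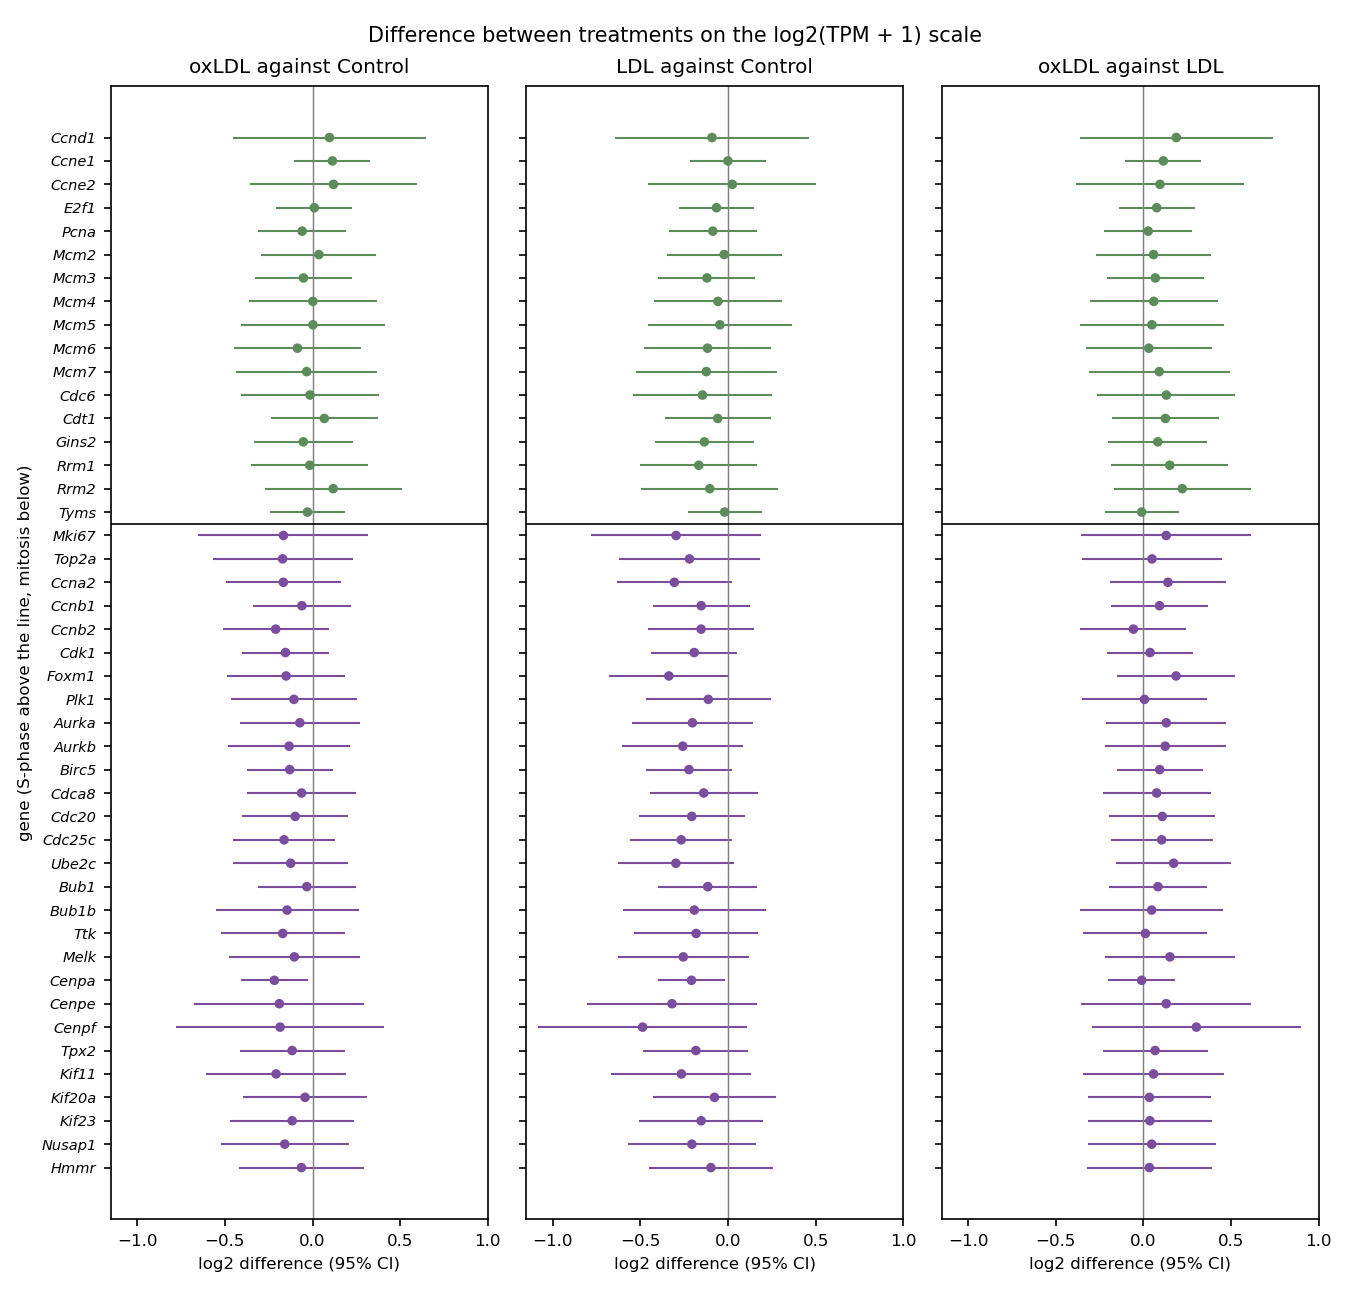
Log2 difference of each member on the log2(TPM + 1) scale for oxLDL against Control, LDL against Control and oxLDL against LDL, as points with 95% confidence intervals from limma, S-phase genes in green above the line and mitosis genes in purple below. All intervals cross 0 except those of Cenpa against Control, and mitosis points lie left of 0 in both comparisons with Control.

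Replicate numbers set the members apart more than treatments did. In a limma fit with treatment and number, the F test of number passed for 9 of 45 members (20%), against 11.7% of all 13495 genes. They were Mcm5, Mcm7, Rrm2 and Tyms among the S-phase genes and Mki67, Top2a, Plk1, Cenpe and Kif20a among the mitosis genes, with limma adjusted p from 0.026 (Rrm2 and Cenpe) to 0.043 (Plk1). Number 1 was the lowest of 3 in every treatment for 36 of 45 members (12 S-phase and 24 mitosis), against 22.0% of all genes. Averaged over treatments, number 2 lay above number 1 for 45 of 45 members and number 3 above number 1 for 43. The median member was 0.31 higher in number 2 and 0.27 higher in number 3 than in number 1 on the log2 scale, where the medians over all genes were 0.03 and 0.08. Cenpe, at 0.56 (number 2 minus number 1), and Mki67, at 0.55 (number 3 minus number 1), had the largest such differences among the 9. Tyms differed by 0.16 (number 2 minus number 1) and by -0.06 (number 3 minus number 1).

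The share of a member's variation that lay between numbers had a median of 54.6%, against 16.7% between treatments and 23.4% left over. Over all genes these medians were 44.2%, 16.9% and 28.8%. For S-phase genes the medians were 59.6% between numbers and 8.19% between treatments, and for mitosis genes 51.7% and 20.8%. The number share exceeded the treatment share in 42 of 45 members (93.3%), against 69.7% of all genes. The exceptions were Cenpa, with 20.7% between numbers and 58.3% between treatments, Cdk1, with 15.7% and 33.0%, and E2f1, with 8.38% and 11.1%, most of whose variation was left over.

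**Figure D5:**
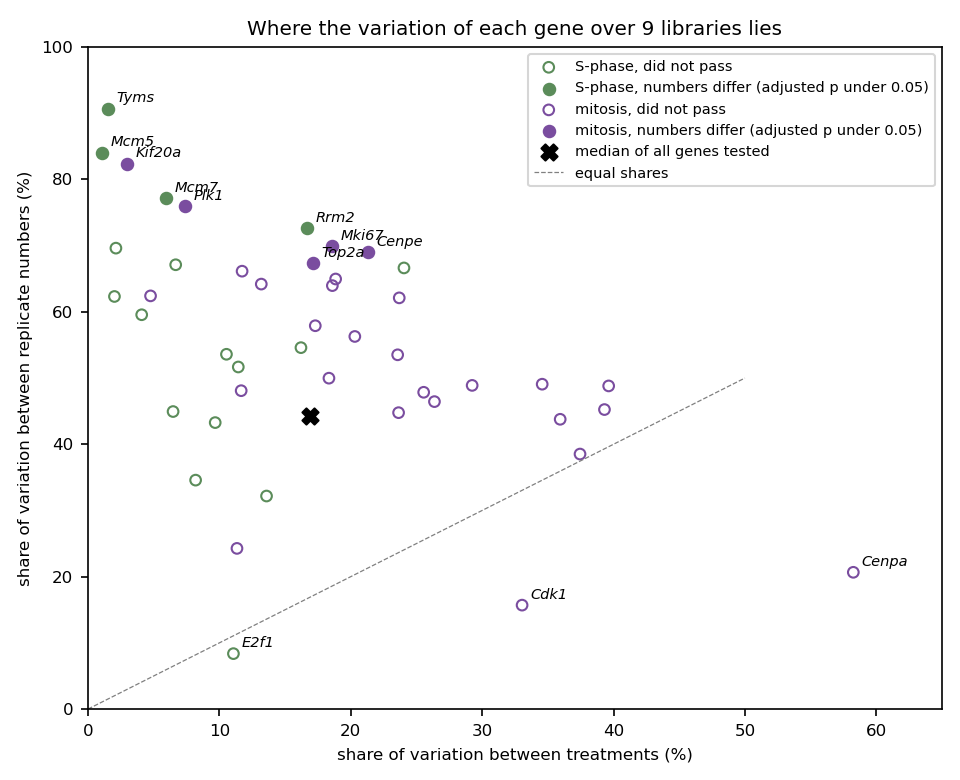
Share of each member's variation over 9 libraries that lies between replicate numbers (y axis, %) against the share between treatments (x axis, %), with filled symbols for the 9 members that differed between numbers, green for S-phase and purple for mitosis genes, and a cross for the median of all genes tested. All but Cenpa, Cdk1 and E2f1 lie above the dashed line of equal shares.

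The count of 9 rested on single libraries. It was 4 (8.89%) without oxLDL 2, against 7.4% of all genes, and 24 (53.3%) without oxLDL 3, against 14.7%. It was 22 (48.9%) without Control 2, against 9.66%, and 12 (26.7%) without Control 3, against 8.45%. Without oxLDL 1, LDL 1, LDL 2, LDL 3 or Control 1 it was 0, where 0.897%, 0.948%, 3.68%, 4.19% and 1.07% of all genes passed. Other settings went both ways. The share was below that of all genes with median-ratio scaling (3 members, 6.67%, against 11%), a constant prior variance (1, 2.22%, against 6.78%) and no filter on low values (0 against 1.84%). It was above with quantile normalization (6, 13.3%, against 10.6%), a minimum of 5 TPM (11, 24.4%, against 15.2%) and pseudocounts of 0.5 and 5 (9 each, 20%, against 11.7% and 11.4%). Markers of other cells moved with the numbers. The endothelial markers summed to 314 to 359 TPM in number 1, 132 to 140.3 TPM in number 2 and 154 to 209 TPM in number 3, so number 1, where the members were low, held the most. The macrophage and leukocyte markers summed to 451 to 649 TPM, 106 to 236 TPM and 442 to 667 TPM in numbers 1, 2 and 3. Cardiomyocyte markers summed to 33.4 to 64.1 TPM, 10.3 to 18.4 TPM and 9.95 to 24.3 TPM in that order, number 1 again apart. Nearly all of that sum was Tnnt2, and only 1 of the 6 markers was high enough to be tested, so it is the level of 1 gene. Melanocyte markers summed to 9.93 to 19.1 TPM, 2.74 to 5.38 TPM and 4.55 to 14.7 TPM. The fibroblast list overlapped, at 12910 to 13647 TPM, 11950 to 13078 TPM and 11775 to 14219 TPM. The part of these markers in the result was not tested.

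Other genes of the cell cycle, from lists beyond the 45, also had lower means with LDL. They were read in the same 9 libraries, so they are not separate evidence. Control 3 was the highest library for 34 of 42 other mitosis genes, against 19.2% of all genes. LDL 1 was the lowest for 37, against 20.7%. Of 42 other mitosis genes, 0 passed with LDL against Control in limma (6 at an unadjusted p under 0.05, against 6.65% of all genes), 42 had a lower mean with LDL, against 50.5% of all genes, and the median difference was -0.19. With the replicate number as a block, 2 of them fell with LDL, where 0.852% of all genes passed in either direction. Cenpm, which encodes a kinetochore protein, had 12.9, 15.2 and 12.3 TPM with oxLDL, 12.0, 15.5 and 12.6 TPM with LDL and 17.1, 20.8 and 18.1 TPM in Control. All 3 LDL and all 3 oxLDL libraries of Cenpm lay below the Control libraries. Its difference with LDL was -0.46, with a limma adjusted p of 0.316, and of 0.029 once the number was a block. Fam64a, also known as Pimreg, a regulator of mitosis, read 39.7, 42.7 and 37.8 TPM with oxLDL, 36.3, 40.2 and 37.7 TPM with LDL and 49.3, 49.2 and 49.6 TPM in Control, again with the Control libraries on top. Its difference with LDL was -0.37, with a limma adjusted p of 0.094, and of 0.038 with that block. Of 32 other replication genes, 28 had a lower mean with LDL, with a median of -0.10, and 0 passed in limma (2 at an unadjusted p under 0.05). Rpa1, which encodes a subunit of the single-strand DNA binding complex, had the smallest p of that list with LDL, at 151, 165 and 148 TPM with oxLDL, 171, 184 and 213 TPM with LDL and 148, 138 and 177 TPM in Control. It was higher with LDL than in Control by 0.30 (limma adjusted p = 0.593), and oxLDL was below LDL in every library.

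With oxLDL against Control, 39 of the 42 other mitosis genes and 20 of the 32 other replication genes had a lower mean, the medians were -0.12 and -0.02, and 0 passed in limma with or without the block (2 and 0 at an unadjusted p under 0.05 without it, against 3.86% of all genes). Against LDL, oxLDL was higher in 39 and 27 of them, with medians of 0.09 and 0.06, and again 0 passed (0 and 1 at an unadjusted p under 0.05, against 3.91% of all genes). The F test of replicate number passed for 4 of the 42 (9.52%) and 7 of the 32 (21.9%), against 11.7% of all genes.

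Of 18 G1 cyclins, CDKs and E2F and MYB factors, 0 passed in limma in any comparison, and 1, 0 and 2 had an unadjusted p under 0.05 for LDL and then oxLDL set against Control and for oxLDL set against LDL, where 6.65%, 3.86% and 3.91% of all genes did. Ccnd2, cyclin D2, read 146, 154 and 149 TPM with oxLDL, 119.7, 128 and 151 TPM with LDL and 135, 116 and 154 TPM in Control, with overlap throughout. Cdk4, the partner of the D-type cyclins, had 414, 412 and 375 TPM with oxLDL, 395, 388 and 369.8 TPM with LDL and 397, 438 and 379 TPM in Control, and its treatments overlapped too. Mybl2, B-MYB, the factor that acts on CHR promoters with FOXM1, stood at 14.6, 17.1 and 15.8 TPM with oxLDL, 11.8, 14.0 and 13.9 TPM with LDL and 14.9, 13.7 and 15.0 TPM in Control. Every oxLDL library of Mybl2 was above every LDL library, by 0.24 on the log2 scale (limma adjusted p = 1). Cdk6, the second partner of D-type cyclins and the gene of this list with the smallest p for LDL, had 13.9, 12.2 and 14.3 TPM with oxLDL, 7.90, 10.5 and 11.2 TPM with LDL and 13.2, 11.6 and 16.3 TPM in Control. Its LDL libraries lay below all others, at -0.44 against Control (limma adjusted p = 0.535).

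The inhibitors of the cycle were read beside the members. Cdkn1a encodes p21, which blocks cyclin-CDK complexes and is a target of p53, and it had 203, 202 and 203 TPM with oxLDL, 174, 189.7 and 196 TPM with LDL and 153, 167 and 162 TPM in Control. The 3 groups did not overlap, with oxLDL highest and Control lowest, against 7.33%, 10.7% and 8.31% of all genes that did not overlap for oxLDL and then LDL set against Control and for oxLDL set against LDL. The log2 difference was 0.33 (SE 0.06) for oxLDL against Control and 0.22 (SE 0.06) for LDL against Control, at limma adjusted p = 0.421 and 0.366, and 0.078 and 0.105 with the block, so neither passed. Cdkn1b, which encodes p27, read 23.1, 23.8 and 27.2 TPM with oxLDL, 23.7, 27.8 and 24.5 TPM with LDL and 25.2, 27.1 and 27.2 TPM in Control, with overlap in each comparison. Cdkn2d, which encodes the CDK4 and CDK6 inhibitor p19, had 36.6, 38.4 and 34.2 TPM with oxLDL, 34.3, 39.2 and 32.2 TPM with LDL and 47.7, 42.8 and 42.0 TPM in Control, its Control libraries above all others. Its difference with LDL was -0.32 (limma adjusted p = 0.349). Of the 10 inhibitors and pocket proteins, 0 passed in limma in any comparison, with 3, 2 and 1 at an unadjusted p under 0.05 for LDL and then oxLDL set against Control and for oxLDL set against LDL, against the same shares of all genes. The F test of replicate number passed for 0 of the 10, against 11.7% of all genes. It gave 2 of the 10 an unadjusted limma p under 0.05, where 4474 of all 13495 genes had one.

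The library kit did not mark strand, so reads of genes that share exons with a gene on the other strand cannot be told apart. In GENCODE M21 (GRCm38) 12 of the 45 members share exon bases with a gene on the other strand, among them Mcm7 with Cops6 and Ap4m1 and Kif20a with Cdc23, and 3 with one on the same strand. Pcna, Tyms, Ccnb1 and Ccnb2 have named pseudogenes that may take some of their reads. Values of these genes are uncertain to that extent.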

How the data were processed

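Total RNA (50 ng per sample) of cultured mouse valvular interstitial cells was made into unstranded libraries and read in 100-base pairs, per the labels' protocols. The authors deposited TPM values, and the submitters' processing notes name STAR, RSEM 1.3.1 and build mm10. The annotation was not given in sources used here. Columns summed to 999998.81 to 1000000.43, and 0 columns were left unused.

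Values were taken to log2(TPM + 1), a scale that understates changes of low genes, from the deposited TPM values. Counts of genes with a lower or higher mean refer to means on this scale. A mean over the 9 libraries of 1 TPM or more was required, which kept 13495 genes and left out 38315. Linear models were fitted in limma 3.58.1 (R 4.3.3; eBayes with its trend option) to all 9 libraries at once, with two-sided tests and 6 residual degrees of freedom, Benjamini-Hochberg adjustment over all genes tested and a threshold of 0.05. All p-values and adjusted p-values are limma's. A permutation of 3 against 3 cannot go below 0.1, so none was run. The replicate number was tested with a moderated F test beside treatment. Sums of squares gave the shares of variation. The script was tested on simulated data.

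The members, lists and tests were chosen with earlier results of these data known. Per-library values are given for 20 preset members, for members that passed and for the 2 of each class with the largest difference in each comparison. Of other lists, genes that passed, the gene with the smallest p and a few preset regulators were named. Over all genes, numbers paired the libraries by their values, though no label states a pairing. Deviations from group means correlated at 0.172 to 0.497 in 9 same-numbered pairs and -0.309 to 0.13 in 18 others. Over the members alone the ranges overlapped, at 0.0987 to 0.764 in same-numbered pairs and -0.55 to 0.393 in the others. There oxLDL 2 correlated more with LDL 3 (0.393) than with LDL 2 (0.226) or Control 2 (0.0987). The pairing was therefore less clear in the members than over all genes.

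Alternatives were other pseudocounts (0.5 and 5), filters (none, and 5 TPM), scalings (median-ratio, quantile), a constant prior, a replicate block, the compared libraries alone, and each library left out.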

Additional observations from a re-analysis of the deposited data

How the results depend on the processing

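No member passed a treatment comparison under any of the 18 alternatives, replicate block and leave-one-out fits included; the smallest adjusted p was 0.167 for LDL against Control, 0.405 for oxLDL against Control and 0.438 for oxLDL against LDL, all with the block. The SD of a class median between libraries of a treatment, pooled over treatments, was 0.20 in both classes. Class median differences ran from -0.21 to 0.08. The SD is a spread of single libraries, while the differences are between means of 3. With a library left out, the median over the 45 ran from -0.23 to -0.07, from -0.20 to 0.01 and from -0.04 to 0.16 in the comparisons above, in that order. Signs of uncalled member differences changed in 31, 58 and 59 of 810 values, nearly all when a library was left out (30, 56 and 58). Scaling moved counts of lower S-phase genes only slightly (15 for LDL against Control with median-ratio scaling, 10 for oxLDL against Control with quantile normalization, 0 for oxLDL against LDL with it), and mitosis counts not at all.

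Genes called among all tested, with LDL against Control, numbered 19 with no filter, 115 with the replicate block, 9 with the compared libraries alone and 4 to 37 with a library left out. With oxLDL against Control they numbered 1 at a pseudocount of 5, 10 with no filter, 1 with a constant prior, 17 with the block, 1 with the libraries alone and 1 to 3 with a library left out. With oxLDL against LDL they numbered 8 with no filter, 8 with a constant prior, 35 with the block, 6 with the libraries alone and 1 to 10 with a library left out. Genes differing between replicate numbers were 501 with no filter, 915 with a constant prior and 121 to 1980 with a library left out. Of the members, 0 differed between numbers with no filter (against 1.84% of all genes) and 3 with median-ratio scaling (against 11%). With a constant prior 1 did (against 6.78%), with quantile normalization 6 (against 10.6%) and with the 5 TPM filter 11 (against 15.2%). The pseudocounts of 0.5 and 5 gave 9 each (against 11.7% and 11.4%). With a library left out, 0 to 24 members differed, where 0.897% to 14.7% of all genes did. The cause was not tested. TPM values hold no depth, so counting error stays unknown.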
